A study of Mus musculus with 28 samples.

Results

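The clustered zinc finger genes are the 208 autosomal protein-coding mouse genes whose symbol is Zfp plus a number and whose body lies within 100 kb of the body of another such gene. They were taken from 20665 autosomal protein-coding genes of the RefSeq table for GRCm38.p6, whose chromosomes carry mm10 coordinates. The rule uses symbols and positions and no measured value, but it was set with earlier results of these data known. The table held 360 Zfp-number genes. Zfp42 and Zfp532 were left out and 150 others had no such neighbour or stood too far from it. The members form 50 clusters, which are chains of members with gaps of at most 100 kb. Of these clusters 21 hold 2 members and 29 hold 3 or more, and the largest holds 15.

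The data are 2 lists of consensus regions from CUT&RUN, in which micrococcal nuclease tethered to an antibody cuts out the chromatin around a histone mark. One list holds 5446 regions of the histone variant H3.3 and the other 57857 regions of histone H3 acetylated at lysine 27 (H3K27ac), which is found at active promoters and at enhancers in use. The cells were ES-E14TG2a (E14) mouse embryonic stem cells of male origin grown in medium with serum and LIF (the labels also describe a LIF+2i medium), either Wildtype or with an alanine for lysine change (K122A) in H3f3a and H3f3b, the genes that encode H3.3. The libraries number 28, with 7 for each of 4 targets (H3.3, H3K27ac, H3K122ac and a control without antibody). In each target the genotypes H3f3a_AA_H3f3b_WTWT, H3f3a_WTWT_H3f3b_AA and H3f3a_WTA_H3f3b_AA have 1 library each. H3f3a_AA_H3f3b_WTA has 2, from 2 clones, and Wildtype has 2. A genotype with 1 library is 1 clonal line at most, so clone and genotype cannot be told apart. The lists give positions only, with no height, score or value per library. No region can therefore be assigned to a genotype, depth is unknown, mutant and Wildtype cells could not be compared, and every statement below is a count or a width with no test. Intervals are 95% Clopper-Pearson (exact) ones, and they take in no error but that of counting genes or regions.

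The label of the cells was checked on genes that mark cell types. All 8 embryonic stem cell genes examined carried H3K27ac within 1 kb of a gene end, among them Pou5f1 with a region of 8921 bp, Nanog with 4062 bp and Esrrb with 7502 bp. None of 3 primitive endoderm genes and neither of 2 trophoblast genes did, but H3.3 without H3K27ac lay at the ends of Gata6, with a region of 4249 bp, Sox17, with 2186 bp, and Cdx2, with 3323 bp, against 1684 bp at Pou5f1. Of 3 fibroblast genes, Thy1 alone did, with 213 bp, while Col1a1 and Col1a2 had no region of either list.

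Most proteins encoded by such genes carry tandem C2H2 zinc fingers, each of which contacts a few bases of DNA. Many also carry a KRAB box, which brings in TRIM28 and the histone methyltransferase SETDB1 to silence transposable elements in early embryos and embryonic stem cells. The genes arose by local duplication, so near relatives sit side by side. H3.3 is placed at active genes by the HIRA chaperone and at heterochromatin, including some retroelements, by DAXX with ATRX.

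H3K27ac was found at a gene end of 136 of the 208 clustered Zfp genes, or 65.4% (interval 58.5 to 71.8), against 40.6% of all autosomal protein-coding genes. A gene end here is a window reaching 1 kb to each side of an annotated end, and a region counted if it touched the window by 1 bp. H3.3 lay at an end of 35 members, or 16.8% (12 to 22.6), and the background over all genes was likewise 16.8%. The family thus stood above the background for H3K27ac and at it for H3.3. Both marks were present at 34 members, or 16.3%, against 11.2% of all genes, and H3K27ac alone at 102, or 49.0%, against 29.3%. H3.3 alone was present at 1 member, or 0.481% (0.0122 to 2.65), against 5.55%. Counted instead within 1 kb of the promoter start given by RefSeq, it was present at 3 of 180 members, or 1.67% (0.345 to 4.79), which are Zfp398, Zfp771 and Zfp78, against 5.98% of all genes. Neither mark was present at the ends of 71 members, or 34.1%, against 53.9%.

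Inside the body, beyond the gene-end windows, the members were near the background in both marks. A region inside the body of a gene as annotated can still lie at a promoter. H3.3 regions lay inside 13 members, or 6.25%, against 5.41% of all genes, and H3K27ac regions inside 85, or 40.9%, against 38.5%. No region of either list touched the ends or the body of 46 members, or 22.1% (16.7 to 28.4), against 42.3% of all genes.

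The Zfp-number genes outside clusters differed from the members in H3.3 more than in H3K27ac. H3.3 was at an end of 35 of 208 members (16.8%), against 45 of 150 other Zfp-number genes (30.0%). H3K27ac was at an end of 65.4% of members, against 58.0% of the other Zfp-number genes (interval 49.7 to 66.0), and these intervals overlap. H3.3 alone was at the ends of 1 member, against 12 of the other Zfp-number genes, or 8.0%. Counted within 1 kb of the promoter start, the contrast was smaller. It was then at 3 of 180 members (1.67%, interval 0.345 to 4.79) and 6 of 120 other Zfp-number genes (5.0%, 1.86 to 10.6), and these intervals overlap. The 48 protein-coding genes that are no members but lie inside the cluster spans had H3K27ac at 52.1% and H3.3 at 10.4%. Olfactory receptor genes, another large family in tandem clusters, which is used mainly in olfactory neurons, had H3K27ac at 3 and H3.3 at 1 of 1100 genes.

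**Figure D1:**
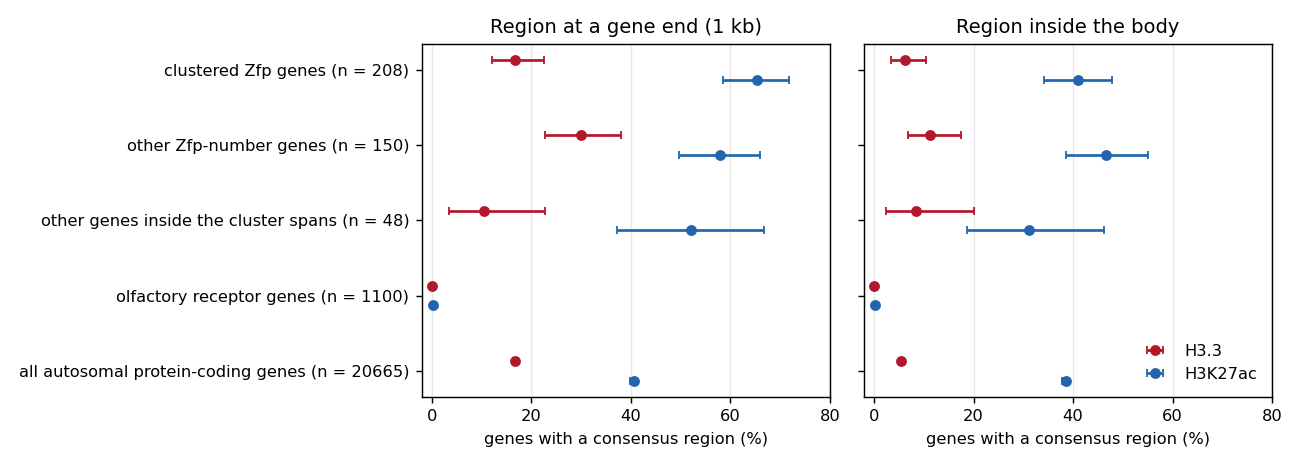
Share of genes with a consensus region, in percent on the horizontal axis, at a gene end (left panel) and inside the body (right panel) for 5 gene sets, with H3.3 in red and H3K27ac in blue. Points are shares and bars exact 95% intervals; the clustered Zfp genes reach 65.4% for H3K27ac at gene ends against 40.6% of all genes, while their H3.3 share equals that of all genes at 16.8%.

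A larger share of H3.3 regions lay on H3K27ac at the members than at gene ends in general. Of 33 distinct H3.3 regions at member ends, 29 touched an H3K27ac region, or 87.9% (71.8 to 96.6), against 1520 of 3119 H3.3 regions at an end of any autosomal protein-coding gene, or 48.7%. Seen from the genes, H3.3 was at 34 of the 136 members that had H3K27ac, or 25% (18 to 33.1), against 27.7% of all genes with H3K27ac. Among members without H3K27ac it was at 1 of 72, or 1.39% (0.0352 to 7.5), against 9.33% of all genes without it and 19.0% of the other Zfp-number genes without it. Set against all genes, members with H3K27ac therefore carried H3.3 about as often. The difference from all genes lay among those without H3K27ac at an end, where the member share rests on 1 gene. Set against the other Zfp-number genes, members were also lower where H3K27ac was present. There H3.3 was at 37.9% of the other Zfp-number genes (27.7 to 49.0), an interval that overlaps that of the members. In reverse, 32 of 158 H3K27ac regions at member ends touched H3.3, or 20.3%, against 15.9% at any gene end.

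The 4 H3.3 regions at member ends that touched no H3K27ac region ranged from 225 to 1016 bp. They lay at Zfp444, with 231 bp, at Zfp146, with 225 bp, at Zfp78, with 1016 bp, and between Zfp786 and Zfp398, with 432 bp. Zfp398, at chr6:47835633-47873542, was the 1 member with H3.3 and no H3K27ac at its ends. Its start overlaps that of Zfp786. Zfp786 shares the H3.3 region, and the H3K27ac region of Zfp786 lies at its other end, beside Pdia4. Likewise Zfp78 (chr7:6362809-6382606) had H3.3 at its start and its only H3K27ac region, of 627 bp, at its finish, where the next member, Zfp28, begins.

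Where the RefSeq promoter table gives the strand, the marks could be assigned to the start or the finish of a gene. This held for 180 of the 208 members and for 16457 genes in all. H3.3 was within 1 kb of the annotated start of 29 of these members, or 16.1%, against 16.0% of all genes. At the finish it was found at 0 of 180 members, which allows up to 2.03%, against 2.18% of all genes. H3K27ac was at the start of 110 members, or 61.1%, against 35.6%, and at the finish of 19, or 10.6% (6.48 to 16.0), against 19.9%. The excess of H3K27ac over the background thus stood at the starts, and at the finish the members were below it.

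Position along the gene gave the same order. Here a region shared by members was counted once for each of them, so the counts and intervals hold some regions more than once. All 30 gene-end H3.3 regions of strand-known members lay nearer the start than the finish, against 2667 of 2983 at other genes (89.4%). For H3K27ac it was 118 of 139, or 84.9% (77.8 to 90.4), against 64.2%. Inside the body, 26.6% of 128 H3K27ac regions had their centre within 5 kb of the start, against 8.57% at other genes, and 13.3% within 5 kb of the finish, against 10.1%. A fixed distance takes in more of a shorter body, and gene length was not matched. Its median was 15788.5 bp in members and 17511 bp in other genes, with upper quartiles of 25882.5 and 45519 bp. The finish side of the body held 41.4% of the inside H3K27ac regions of members, against 49.3% at other genes. The last exon of these genes usually encodes the zinc finger array, but the table has no exons and no region could be placed in one. Of 10 inside H3.3 regions, 7 lay within 5 kb of the start (70.0%, interval 34.8 to 93.3), against 40.7% at other genes. Much of this was promoter sequence, because the start of the gene body is not always the promoter start of the table. Of the 10 regions, 6 were within 1 kb of a tabulated promoter start of the same gene, against 37.9% at other genes, and of the 128 inside H3K27ac regions 14 were, or 10.9% (6.11 to 17.7), against 3.46%.

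**Figure D2:**
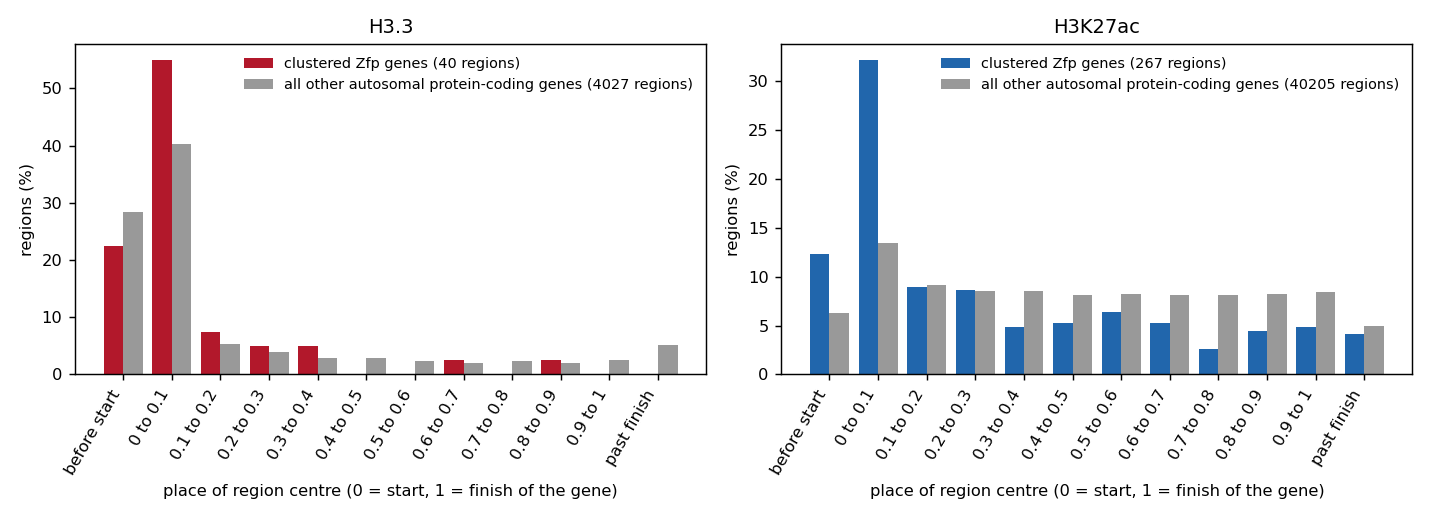
Place of region centres along strand-known genes, as percent of regions on the vertical axis, in 12 classes from before the start to past the finish, where 0 is the start and 1 the finish; coloured bars are clustered Zfp genes and grey bars all other autosomal protein-coding genes. The class from 0 to 0.1 held 32.2% of the H3K27ac regions of members, against 13.5% at other genes, and no H3.3 region of a member lay past the finish. A region shared by members was counted once for each of them.

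The promoters printed next show the range found among the members, each as the 250 bases before the transcription start from RefSeq (GRCm38.p6), in the direction of transcription with every CpG in capitals. They were chosen after their values were seen. Zfp260 (chr7:30094826-30095075, plus strand) and Zfp811 (chr17:32809932-32810181, minus strand) have 5 CpGs each in the 300-base promoter and the widest H3K27ac regions among promoters with 5 or fewer, of 2444 and 1722 bp. Zfp777 (chr6:48047795-48048044, minus strand) is the most CpG-rich promoter with neither mark. Zfp809 (chr9:22225453-22225702, plus strand) belongs to a studied retrovirus repressor with both marks. Zfp784 (chr7:5038447-5038696, minus strand) lies wholly inside the H3.3 region it shares with Zfp580. Zfp398 (chr6:47835411-47835660, plus strand) is the member with H3.3 alone.
Zfp260: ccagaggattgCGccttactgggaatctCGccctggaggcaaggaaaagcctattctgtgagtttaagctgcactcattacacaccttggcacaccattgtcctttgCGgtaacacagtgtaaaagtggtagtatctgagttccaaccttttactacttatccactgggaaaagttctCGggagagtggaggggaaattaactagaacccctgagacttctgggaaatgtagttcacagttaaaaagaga
Zfp811: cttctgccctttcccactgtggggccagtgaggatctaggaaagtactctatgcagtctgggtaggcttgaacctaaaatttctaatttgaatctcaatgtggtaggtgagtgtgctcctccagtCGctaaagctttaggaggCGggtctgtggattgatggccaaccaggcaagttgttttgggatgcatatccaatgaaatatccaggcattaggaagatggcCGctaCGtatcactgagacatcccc
Zfp777: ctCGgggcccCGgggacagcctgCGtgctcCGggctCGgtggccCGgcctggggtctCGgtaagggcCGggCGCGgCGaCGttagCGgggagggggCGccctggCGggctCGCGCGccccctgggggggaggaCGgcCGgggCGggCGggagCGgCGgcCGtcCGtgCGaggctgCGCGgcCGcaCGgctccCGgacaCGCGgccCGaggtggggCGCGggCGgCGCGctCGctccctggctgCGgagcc
Zfp809: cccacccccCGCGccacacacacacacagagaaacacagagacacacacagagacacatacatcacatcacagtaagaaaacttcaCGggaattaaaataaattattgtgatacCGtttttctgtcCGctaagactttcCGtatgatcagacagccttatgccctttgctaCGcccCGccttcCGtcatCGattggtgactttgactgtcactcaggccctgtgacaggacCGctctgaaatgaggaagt
Zfp784: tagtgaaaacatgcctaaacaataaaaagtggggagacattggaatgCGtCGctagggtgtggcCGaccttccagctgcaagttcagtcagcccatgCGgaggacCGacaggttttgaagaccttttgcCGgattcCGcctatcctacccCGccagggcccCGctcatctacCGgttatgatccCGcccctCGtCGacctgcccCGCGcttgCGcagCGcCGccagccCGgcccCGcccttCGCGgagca
Zfp398: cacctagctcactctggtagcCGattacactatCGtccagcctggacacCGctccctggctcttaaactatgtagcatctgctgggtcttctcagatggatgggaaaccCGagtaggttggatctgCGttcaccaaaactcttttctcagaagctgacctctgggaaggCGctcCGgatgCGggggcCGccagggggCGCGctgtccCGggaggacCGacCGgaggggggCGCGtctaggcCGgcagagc

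Across members the CpG content of the promoter made little difference to H3K27ac, unlike across all genes. The 300-base promoter, from 250 before to 50 after the start, held a median of 11 CpGs in the 180 members, against 14 in all 16457 genes and 17 in the other Zfp-number genes, and median GC content was 53.3%, against 56.7% in all genes. With 1 to 5 CpGs, as in Zfp260 and Zfp811, H3K27ac lay within 1 kb of the promoter start in 17 of 28 members, or 60.7% (40.6 to 78.5), against 386 of 4374 genes in all, or 8.82%. With 6 to 10 CpGs it was 34 of 56, again 60.7%, against 28.9%. These CpG-poor promoters are where members and all genes stood furthest apart. With 11 to 20 CpGs H3K27ac was at 46 of 67 member promoters, or 68.7%, against 52.3%, and with 21 or more at 17 of 29, or 58.6%, against 55.4%. Other Zfp-number genes had 37.5% of 16 promoters in the lowest class and 64.0%, 79.4% and 55.6% in the next ones, with wide intervals.

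H3.3 was more frequent at member promoters with more than 10 CpGs. It was within 1 kb of 3 of 28 member promoters with 1 to 5 CpGs (10.7%), against 1.35% of all genes, and of 6 of 56 with 6 to 10 (also 10.7%), against 9.44%. With 11 to 20 CpGs it was at 25.4%, against 26.0%, and with 21 or more at 24.1%, against 27.3%. From 6 CpGs upward the members were thus near the share of all genes. The member intervals overlapped, with 4.03 to 21.9 for 6 to 10 CpGs and 15.5 to 37.5 for 11 to 20. Other Zfp-number genes had H3.3 at 12.5% in the lowest class and 36.0%, 35.3% and 33.3% in the next ones, with wide intervals. Members with both marks near the promoter start had a median of 14 CpGs, those with H3K27ac alone 10.5 and those with neither 10, against 22, 21 and 5 over all genes. Zfp777, with 51 CpGs and a GC content of 82.3%, had no region within 1 kb of its promoter or gene ends and 1 H3K27ac region of 351 bp inside its body.

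**Figure D3:**
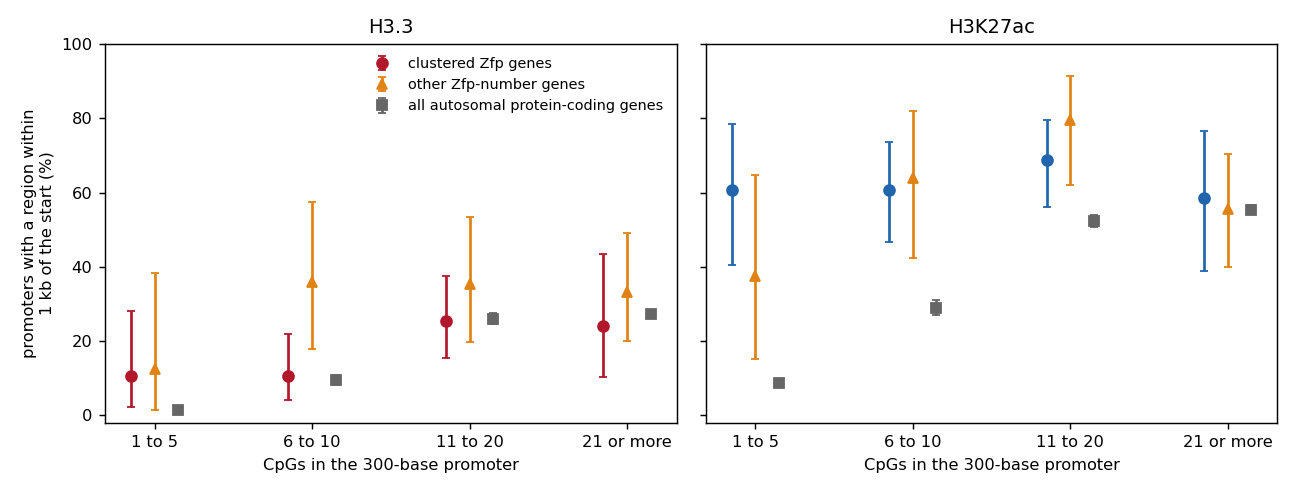
Share of promoters with a consensus region within 1 kb of the start, in percent on the vertical axis, by the number of CpGs in the 300-base promoter, for H3.3 (left) and H3K27ac (right). Coloured circles are clustered Zfp genes, triangles other Zfp-number genes and squares all autosomal protein-coding genes, with exact 95% intervals; in the class of 1 to 5 CpGs H3K27ac was at 60.7% of member promoters against 8.82% of all.

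Short motifs were counted in the same 300 bases on both strands, and no listed motif contains another. The ETS core CCGGAA was in 37.2% of member promoters, against 19.6% of all promoters and 34.2% of those of the other Zfp-number genes. It was in 42.9% of member promoters with H3K27ac alone, 40.0% with both marks and 28.6% with neither, against 32.4%, 38.9% and 10.3% over all genes. The NF-Y box CCAAT was in 53.3%, against 39.1%, and the TATA box TATAAA in 4.44%, against 13.5%. The SP box GGGCGG was in 37.8%, against 47.3%, and the ZFP57 hexamer TGCCGC in 12.8%, against 14.0%. The NRF1, CRE and YY1 motifs were each in under 5% of member promoters, with 4.44%, 3.33% and 1.11%, against 1.37%, 2.4% and 1.92%. These are matches of letters and not sites.

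Duplicate promoters limit the reading of some members, because short reads from near-identical copies cannot always be told apart. For 17 of the 180 members another gene of the table had a promoter of at least 95% identity over 200 bases or more. H3K27ac was at a gene end of 7 of these 17 (41.2%, interval 18.4 to 67.1), against 111 of the 163 without such a copy (68.1%, 60.4 to 75.2), and H3.3 at a gene end of 1, against 28. The promoters of Zfp942 (chr17:21962465-21962714, minus strand) and Zfp944 (chr17:22361401-22361650, minus strand), printed next in the same way and chosen after their values were seen, are 99.636% identical. Both had H3K27ac regions, of 470 and 1489 bp, and each shares its region with the divergent neighbour, Zfp943 beside Zfp942 and Zfp758 beside Zfp944.
Zfp942: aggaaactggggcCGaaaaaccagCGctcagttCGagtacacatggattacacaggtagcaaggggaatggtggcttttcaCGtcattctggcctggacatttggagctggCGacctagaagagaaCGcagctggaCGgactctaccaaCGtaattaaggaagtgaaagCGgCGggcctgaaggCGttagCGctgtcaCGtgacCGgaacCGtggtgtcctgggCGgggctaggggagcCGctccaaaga
Zfp944: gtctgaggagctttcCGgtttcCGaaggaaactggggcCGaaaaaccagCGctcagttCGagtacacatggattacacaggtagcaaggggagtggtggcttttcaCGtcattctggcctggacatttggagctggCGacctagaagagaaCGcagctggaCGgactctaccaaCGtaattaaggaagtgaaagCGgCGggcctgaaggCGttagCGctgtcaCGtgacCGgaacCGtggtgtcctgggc

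The regions at member ends were narrower than at other genes. Counting the widest region at the ends of each gene, H3K27ac had a median of 937.5 bp at the 136 members (interquartile range 579.5 to 1777.25 bp, range 193 to 13314 bp), against 1404 bp at 8247 other genes (750.5 to 2633 bp) and 1485 bp at the other Zfp-number genes. H3.3 had a median of 432 bp at the 35 members (240 to 857.5 bp, range 203 to 2447 bp), against 489 bp at other genes (266 to 839 bp) and 385 bp at the other Zfp-number genes. By this count the gap was larger in H3K27ac, and the interquartile ranges overlapped in both marks. Counting each region once, both marks were narrower at member ends than at an end of any gene. The medians were then 862.5 bp against 1069.5 bp for H3K27ac and 379 bp against 473 bp for H3.3. Width depends on how regions were called and joined, which is not given in the sources used here.

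**Figure D4:**
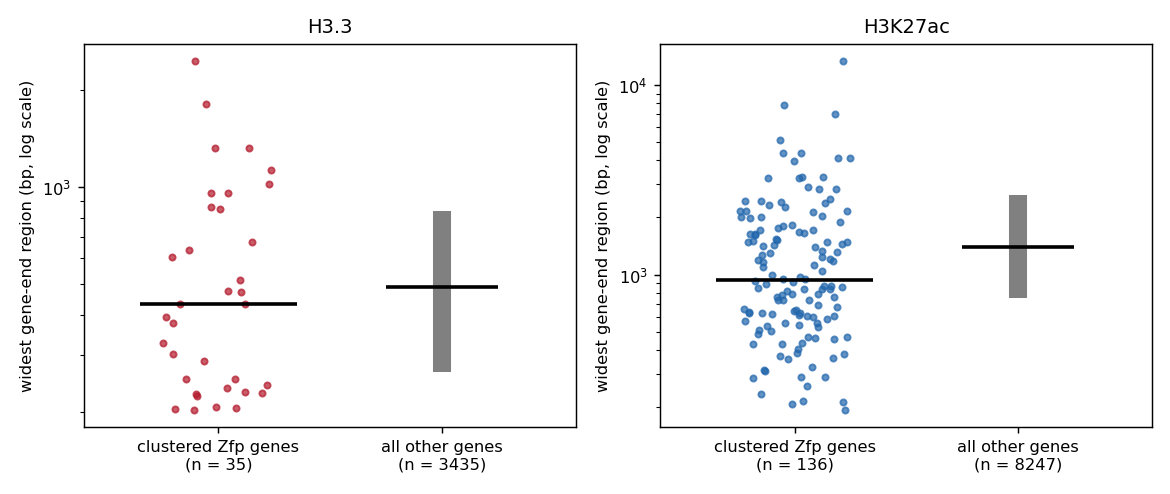
Width in bp, on a logarithmic axis, of the widest H3.3 (left) and H3K27ac (right) region at the ends of each gene. Points are clustered Zfp genes with a black line at their median of 432 and 937.5 bp, and the grey bar is the interquartile range of all other genes with a black line at their median of 489 and 1404 bp.

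Zfp568, whose KRAB zinc finger protein represses a placental transcript of Igf2 in the mouse embryo, had the widest H3.3 region of any member. It lies at chr7:29983955-30028282, its H3.3 region spans 2447 bp (chr7:29981797-29984243), and H3K27ac over the same end spans 7828 bp. A further 8 H3K27ac regions with 12795 bp lay inside its body. Next in H3.3 width came Zfp524 with 1801 bp, the pair Zfp668 and Zfp646 with 1 shared region of 1321 bp, Zfp566 with 1130 bp and Zfp78 with 1016 bp. Zfp784 and Zfp580 shared 959 bp, Zfp13 had 864 bp and Zfp865 851 bp. All of them but Zfp13 lie on chromosome 7. The other members with H3.3 ranged down to Zfp606, with 203 bp.

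Several of these regions lie where a pair of genes meet, so 1 region counts for more than 1 gene. The H3.3 regions at the ends of a pair of members number 3, at Zfp668 with Zfp646, Zfp784 with Zfp580, and Zfp786 with Zfp398. The regions of Zfp524 and Zfp672 also lay at the ends of genes outside the family, Fiz1 and Sh3bp5l. Of the H3K27ac regions, 10 were at the ends of a pair of members and 9 also at the end of a gene outside the set. For 6 members, no H3K27ac region at their ends was free of such an outside gene.

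The widest H3K27ac region, of 13314 bp (chr7:127222292-127235605), lay at Zfp553 and also at Septin1. It touched an H3.3 region, but no H3.3 region reached the gene-end windows of Zfp553. Zfp568 came next, followed by Zfp870 with 7045 bp and Zfp13 with 5143 bp, and the region of Zfp13 is also at Zscan10. Zfp263, which encodes a zinc finger protein with a SCAN domain, had 4362 bp, and its H3.3 region measured 672 bp. Zfp786 had 4361 bp, Zfp668 and Zfp646 4128 bp, and Zfp985 3979 bp. Zfp53 and Zfp52, which tie for the last place of the 10, shared 3289 bp at the finish of Zfp53 and the start of Zfp52. Of these 11 genes, Zfp553, Zfp870, Zfp985 and Zfp52 lacked H3.3 at their ends.

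Members with known roles in silencing differed in H3.3. Of those named here, all but Zfp708 had H3K27ac at an end, as did 65.4% of all members. Zfp809, which silences murine leukaemia proviruses in embryonic stem cells, had both marks at its start, where the widest H3.3 region measured 253 bp and that of H3K27ac 2264 bp, and 5 more H3K27ac regions inside. Zfp819, a retroelement repressor at chr7:43607135-43618279, had H3K27ac of 3229 bp and no H3.3, and Zfp932, a repressor of endogenous retroviruses at chr5:109996502-110012266, H3K27ac of 1669 bp and no H3.3. Zfp445, which helps to keep genomic imprints, had a single H3K27ac region of 309 bp, 0 inside its body, and that region also lies at Zkscan7. A tabulated promoter start of Zfp445, 20845 bp from the annotated one, had neither mark within 1 kb. Zfp708, which binds RMER19B retroelements, had no region at either end and 1 H3K27ac region of 2200 bp inside its body, which covered a tabulated promoter start 16431 bp from the annotated one. Zfp57, the other imprint regulator, is no member.

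Within bodies, H3.3 covered little sequence. The 13 members with an inside H3.3 region had a median of 250 bp (199 to 559 bp), against 517 bp at other genes with one. The most was in Zfp771 with 559 bp, Zfp397 with 469 bp, Zfp787 with 392 bp, Zfp428 with 359 bp, Zfp52 with 315 bp and Zfp790 with 254 bp, and none of these had H3.3 at an end. In Zfp771, Zfp787, Zfp428, Zfp52 and Zfp790 the region nevertheless lay at a tabulated promoter start, which it covered or missed by at most 11 bp, so it is H3.3 at a promoter inside the annotated body. Zfp688, with 237 bp, was alike. Per kb of body interior the members held 0.912 bp of H3.3, against 1.058 bp in other genes, and 39.0 bp of H3K27ac, against 49.7 bp. Of the 13 inside H3.3 regions 8 touched H3K27ac (61.5%, interval 31.6 to 86.1), against 41.7% inside any gene.

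Some members carried acetylation inside the annotated body that their ends did not show, in part at promoters. Zfp459, at chr13:67405033-67443302, had 7 inside H3K27ac regions with 15158 bp, the most of any member, and nothing at its ends. The widest of them, 11236 bp, was centred 21946 bp from the start and covered the tabulated promoter start, which lies 21884 bp into the body. Zfp59 had 5764 bp in 2 regions and none at its ends, and the wider region, of 4851 bp, likewise covered its promoter start, 2538 bp into the body. Zfp993 had 11801 bp in 9 regions, but its annotated body of 478623 bp is the longest of the family, and 8 of these centres lay in the last 20% of it. Zfp266 had 11184 bp in 4 regions and Zfp978 6579 bp in 7, and both had H3K27ac at an end as well. The annotated body of Zfp978 takes in the members Zfp991 and Zfp988, and that of Zfp993 overlaps Zfp981. Some of the regions inside Zfp978 and Zfp993 therefore also lie at or in those other members. Over the 85 members with inside H3K27ac the median was 1063 bp, against 2477 bp at other genes.

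Members without any region are the other end of the range. The first 4 of the 46 by symbol are Zfp101, Zfp112, Zfp114 and Zfp14. A missing gene-end mark can also mean a start annotated elsewhere. Among 61 members of the promoter table with neither mark at the gene ends, 9 had a mark within 1 kb of the tabulated promoter start (14.8%, interval 6.98 to 26.2), against 4.54% of all such genes. Gene length gave no clear split, with a median of 14488.5 bp in members with both marks, 15795.5 bp with H3K27ac alone and 18926 bp with neither.

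Acetylation reached nearly all clusters but covered fewer of them whole. H3K27ac was at an end of at least 1 member in 44 of the 50 clusters, at every member in 14 and at none in 6, all of which hold 2 members. Of the 29 clusters with 3 or more members, 23 mixed members with and without it. Among 158 pairs of neighbouring members, 72 had H3K27ac at both, 62 at 1 of the pair and 24 at neither. H3.3 reached fewer clusters, with 1 or more members in 19 clusters and none in 31, of which 17 hold 3 or more members. Zfp668 and Zfp646 form the 1 cluster with H3.3 at every member, from their shared region. Over all members the shares were 65.4% for H3K27ac and 16.8% for H3.3. The cluster and pair counts were not set beside what these shares alone would give, or beside other neighbouring genes. They therefore do not show whether marked members group together.

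The 5 clusters with the most members differed among themselves. Zfp84 to Zfp146 on chromosome 7 has 15 members, of which 6 had both marks, 5 H3K27ac alone and 4 neither. Zfp712 to Zfp748 on chromosome 13 has 14, with H3.3 at none, H3K27ac at 5 and neither at 9. These clusters are close in size and unlike in both marks. Zfp677 to Zfp943 on chromosome 17 has 13, of which 1 had both marks, 9 H3K27ac alone and 3 neither. Zfp180 to Zfp94 on chromosome 7 has 10, with H3K27ac alone at 5 and neither at 5, and Zfp978 to Zfp933 on chromosome 4 has 9, with H3K27ac alone at 6 and neither at 3. Clusters that stood out after their values were seen are Zfp871 to Zfp563 on chromosome 17, where all 8 members had H3K27ac and none H3.3 at an end, and Zfp868 to Zfp866 on chromosome 8, where 4 of 5 had both.

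**Figure D5:**
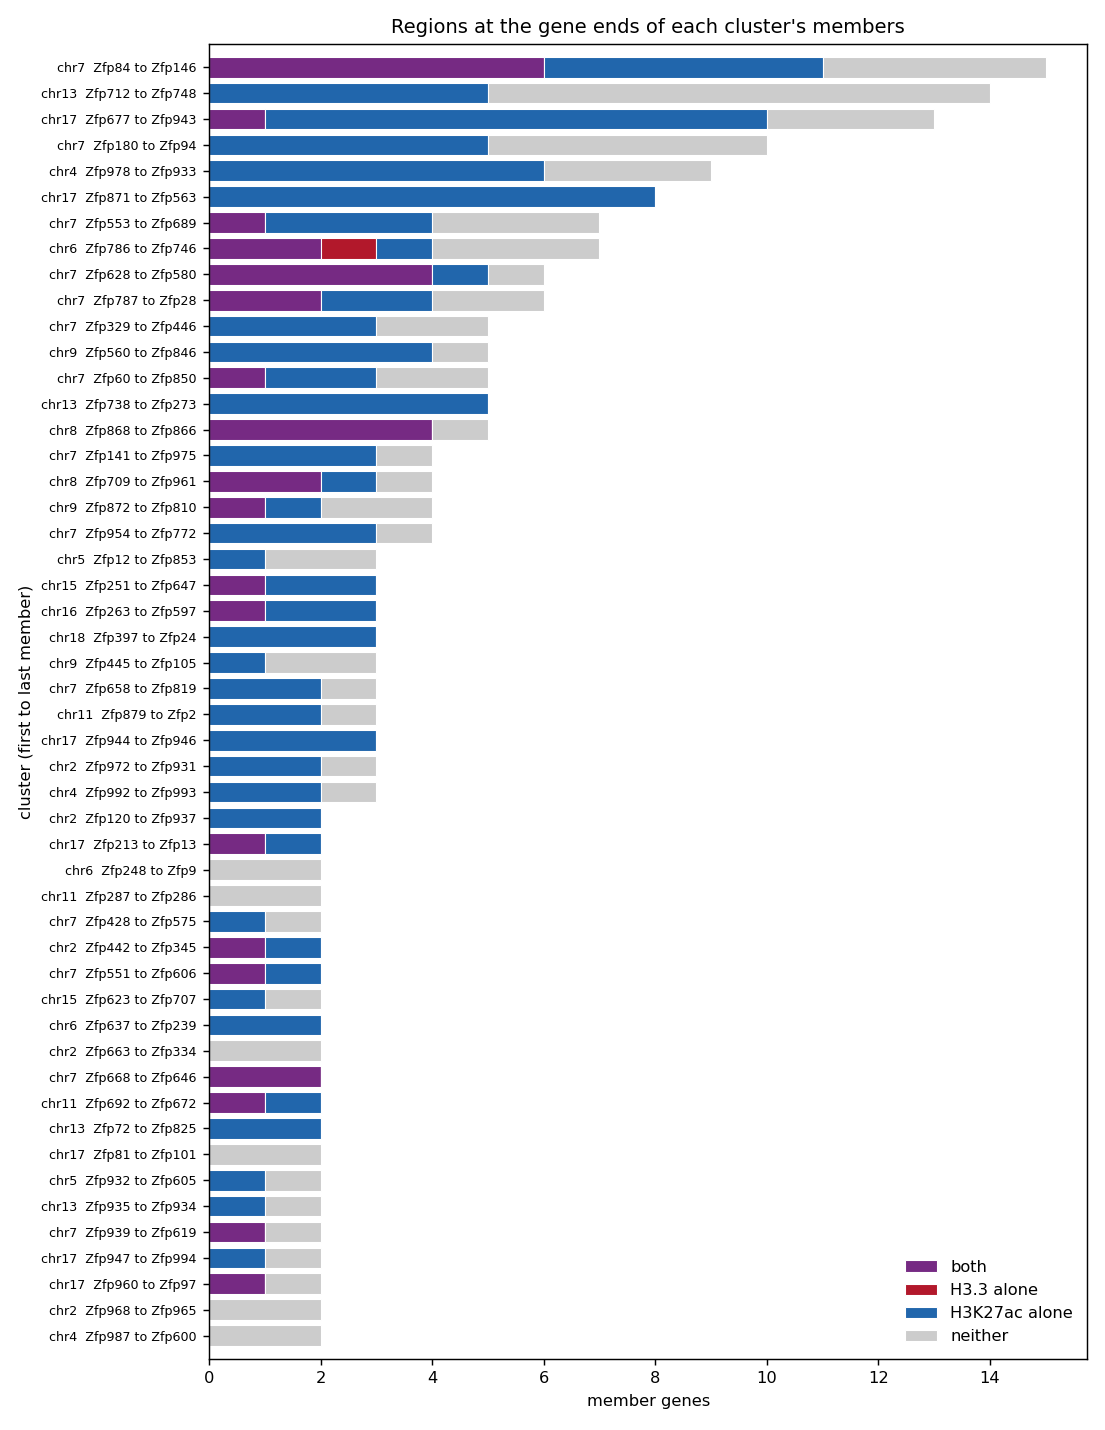
Members of each of the 50 clusters (horizontal axis, number of genes) by the marks at their gene ends, with both in purple, H3.3 alone in red, H3K27ac alone in blue and neither in grey, clusters ordered by size. Blue or purple reaches 44 clusters and covers 14 of them whole, while purple or red is in 19.

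H3.3 was uneven over chromosomes. It was at 18 of 73 members on chromosome 7 and at 6 of 9 on chromosome 8, and at 0 of 14 on chromosome 4, 0 of 23 on chromosome 13 and 3 of 32 on chromosome 17. Without chromosome 7, a choice made after seeing the data, H3.3 was at 12.6% of members and H3K27ac at 64.4%. Most members with H3.3 lay on chromosomes 7 and 8, but chromosome 7 also holds the most members. On chromosome 6 H3.3 was at 3 of 11 members and on chromosome 16 at 1 of 3. H3K27ac was at 49 of 73 members on chromosome 7 and 13 of 23 on chromosome 13. The shares over all genes of each chromosome were not counted. Within the 8.34 Mb of cluster spans, H3.3 regions covered 3.00 bp per kb, against 1.63 over the autosomes, and H3K27ac regions 55.4, against 31.7. Each span runs from the first to the last member body, while the autosomes include long stretches between genes. Gene density was not matched, so these figures show no excess of either mark per gene. Counted per gene, H3.3 was at an end of 16.8% of members and of all genes alike.

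The members just inside the limit of 100 kb are Zfp932 and Zfp605, 97761 bp apart, Zfp972 and Zfp971 at 97633 bp, and Zfp263 and Zfp174 at 96399 bp. Just outside are the gaps between Zfp936 and Zfp715, at 104412 bp, between Zfp994 and Zfp944, at 112323 bp, and between Zfp748 and Zfp738, at 114288 bp. Of the 6 genes inside, 5 had H3K27ac at an end, and of the 6 genes at gaps outside, 4 did. Among the latter, Zfp994, Zfp944, Zfp748 and Zfp738 are themselves members through neighbours on their other side. The counts therefore do not compare genes inside the set with genes outside it.

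The partners through which KRAB zinc finger proteins act were examined as a list of 20 genes, chosen with earlier results of these data known. H3K27ac was at an end of 18 of them, against 40.6% of all genes, and H3.3 at 7, against 16.8%. All 7 had both marks. They are Trim28, the corepressor that binds the KRAB box, with H3.3 of 954 bp and H3K27ac of 2205 bp, the heterochromatin protein genes Cbx3 and Cbx5, the NuRD remodeller gene Chd4, Uhrf1 of DNA methylation maintenance, Resf1, and Daxx, the H3.3 chaperone, with H3.3 of 1308 bp and H3K27ac of 4436 bp. Setdb1 had H3K27ac alone, of 1789 bp. Tasor and Pphln1, which encode subunits of the HUSH silencing complex, had neither mark at their ends and 10 and 5 H3K27ac regions inside their bodies. Mphosph8, the other HUSH subunit gene of the list, had H3K27ac of 11764 bp at an end and no H3.3 there.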

How the data were processed

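CUT&RUN libraries of E14 cells were grouped by target and genotype from their titles. Bowtie2, SAMtools, deepTools, MACS2 and the build mm10 are named in the submitters' processing notes, without roles or versions. The sources used here do not give how regions of single libraries became a consensus, which genotypes entered, or a threshold. Values as deposited by the authors are other than measurements of height: each row holds the chromosome, start and end of a region, per the files themselves, without a score. Starts were raised by 1 to give 1-based positions. No region overlaps another of its list, and columns of other samples numbered 0.

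Members, gene lists and measures were chosen with earlier results of these data known. The genes named are the 10 members with the widest region at a gene end in each list, the 6 with the most bases inside the body in each list, members with H3.3 and no H3K27ac, the first 4 by symbol without a region, the members of the 5 largest clusters by count, and the studied genes Zfp57, Zfp445, Zfp568, Zfp708, Zfp809, Zfp819 and Zfp932. Others named were chosen after their values were seen.

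A region was inside a body if it touched the body beyond the gene-end windows and touched neither window. Gene positions and promoters came from RefSeq tables (GRCm38.p6). Promoters were matched by gene identifier for 180 members, and copies were found with blastn 2.17.0. Counts used Python 3.11.15, pandas 2.3.3 and scipy 1.17.1, and the counting was tested on simulated regions with known answers. Zinc fingers and KRAB boxes of the proteins were not analysed here. Depth, the H3K122ac libraries and the antibody-free controls were not analysed here, so no background could be set beside a region. Alternatives covered the gene-end window, the overlap rule, region width, the distance between members, the symbols taken, single clusters, the annotated start, promoter copies and chromosome 7.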

Additional observations from a re-analysis of the deposited data

How the results depend on the processing

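Of 59 alternative values for the 5 shares of clustered Zfp genes, 51 stayed inside the 95% interval of the reported share and 8 fell outside. With the wider 50% of each region list, H3.3 at gene ends was 7.69%, H3K27ac 38.0% and both 5.29%, and inside the body 0.962% and 21.6%, against 8.89%, 29.1%, 4.53%, 2.77% and 26.3% of all genes in the same setting. Counting the first member of each cluster alone gave H3K27ac at 74.0% of gene ends and 34.0% inside the body. With gene ends of 2.5 kb, H3K27ac inside the body was 33.7%, against 35.1% of all genes. A smaller list can only lower these shares, but the fall was unequal. H3K27ac at gene ends went from 65.4% to 38.0% of members and from 40.6% to 29.1% of all genes, so the excess of members was smaller. Inside the body the member shares then lay below those of all genes, which their intervals still take in (0.117 to 3.43 and 16.2 to 27.9). The cause of the unequal fall and of the other shifts was not tested. Leaving out chromosome 7 and using any tabulated promoter start were chosen after seeing the data and gave 12.6% and 18.3% for H3.3 at gene ends.

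No paired analysis was possible because the deposited lists hold no value per library, and no comparison of genotypes or fit without a replicate was made. Depth and signal height are unknown, and a region that is not listed was not detected at an unknown threshold.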
